A study of Mus musculus with 8 samples.

Results

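Interferon-stimulated genes were followed in whole mouse eyes through 8 genes, Irf1, Irf7, Irf9, Ifit1, Ifit3, Isg15, Gbp2 and Ifi35, taken by their gene symbol in the array's platform annotation. Of 22626 probe sets on the array, which cover 12393 genes, 8 carried the symbol of 1 of these genes alone and covered 7 of the genes. Gbp2 had 2 such probe sets, and statements on the 7 genes use the probe set of higher mean signal. Isg15 was reached only through a ninth probe set that the annotation assigns to Isg15 and to the pseudogene Gm9706 together, so that probe set is described on its own and not counted as Isg15.

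The 8 arrays held total RNA of eyes in 4 groups of 2, numbered I and II. They were KPAW eyes at 1 month, wild-type eyes at 1 month, KPAW eyes at 5 days and wild-type eyes at 5 days. The labels do not expand KPAW or name the allele, tissue or promoter behind it, and no agent or infection is given for any group. A strain, C57Bl6, is named for wild-type eyes of 5 days and for no other group. Nothing in the labels says whether arrays I and II came from separate animals, so the p-values measure only the spread between these arrays. How much of that spread is technical is not known. KPAW arrays I and II differed in rod transcripts at 1 month and in a female marker at 5 days, as given below.

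Interferons are secreted proteins that act on cells bearing their receptors. Type I interferons and interferon-gamma bind separate receptors, whose JAK kinases phosphorylate STAT proteins. STAT complexes then enter the nucleus and bind the interferon-stimulated response element (ISRE) or the gamma-activated site (GAS) in front of target genes. Many target genes keep a low level without infection, held up by small amounts of constitutive interferon and by transcription factors of the IRF family. In the eye, interferon signalling is best known from infection and from inflammation of the cornea and uvea.

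The sites that define this gene class were looked up in the RefSeq promoter table (GRCm38.p6), in which all 8 genes were found, with 10 start sites among them. The ISRE core was searched as 2 runs of GAAA with any 2 bases between them and the GAS as TTCNNNGAA, on both strands, in the 250 bases before each start. An ISRE core was present before 4 of the 8 genes (Ifit1, Ifit3, Gbp2 and Isg15) and in 2.98% of all 32851 promoters of that length. A GAS was present before 1 of the 8 (Irf1) and in 7.02% of all promoters. Neither run of letters occurred in the windows of Irf7, Irf9 and Ifi35. The stretches that hold the matches follow in the direction of transcription, with the matching bases in capitals, because they show the letters that 5 of the genes share with the pathway's known binding sites. They lie at chr19:34640769-34640828 on the plus strand for Ifit1, chr19:34583397-34583426 on the plus strand for Ifit3, chr3:142620579-142620638 on the plus strand for Gbp2, chr4:156200856-156200915 on the minus strand for Isg15 and chr11:53769898-53769957 on the plus strand for Irf1.
Ifit1: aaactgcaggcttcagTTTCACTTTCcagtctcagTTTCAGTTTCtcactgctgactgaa
Ifit3: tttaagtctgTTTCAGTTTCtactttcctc
Gbp2: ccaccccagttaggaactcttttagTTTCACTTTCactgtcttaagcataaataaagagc
Isg15: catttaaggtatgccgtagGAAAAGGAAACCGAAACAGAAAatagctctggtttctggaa
Irf1: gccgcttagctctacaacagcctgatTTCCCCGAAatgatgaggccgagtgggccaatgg
The first 4 carry ISRE cores and the last a GAS. Ifit1 has 2 separate ISRE cores, Ifit3 has a second one further from its start than the stretch shown, and the 3 matches of Isg15 overlap each other. A match is a description of the letters and not evidence that a factor bound there.

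Array-wide facts that touch these genes are few. Signals were brought to 1 scale between arrays and taken as log2(signal + 0.0211), and 15838 probe sets with a mean scaled signal above 0.0406 were tested. Lens crystallin markers were abundant in every array, with a summed scaled signal of 17.3 to 27.8. KPAW I at 1 month lacked rod transcripts, with a summed signal of 0.0826 for 3 rod genes against 13.7 in KPAW II and 12.2 and 14.5 in wild-type eyes of that age. Xist, an RNA made from the inactive X chromosome of females, read 0.0523 to 0.0861 in the 4 arrays of 1 month, 0.0821 in KPAW I and 3.13 in KPAW II at 5 days, and 2.95 and 3.64 in wild-type eyes at 5 days.

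The interferon-stimulated genes stood higher at 1 month than at 5 days in both kinds of eye. Between 5 days and 1 month the mouse's eyelids open and the eye completes its retina and matures its surface epithelium, and the age comparison asks which transcripts change over that time. Of the 7 genes, 6 (Irf1, Irf7, Ifit1, Ifit3, Gbp2 and Ifi35) rose in KPAW eyes, where 6.76% of all probe sets tested rose. The same 6 rose in wild-type eyes, where 8.73% rose, and 4.65% of all probe sets rose in both. The median log2 difference of the 7 genes was 1.05 in KPAW eyes and 1.22 in wild-type eyes, beside -0.04 and -0.00 over all probe sets tested. In each of the 7 genes all 4 arrays of 1 month lay above all 4 arrays of 5 days, as did 14.9% of all probe sets tested. Of all probe sets tested, 25.3% were separate in that direction within KPAW and 32.5% within wild type. For Gbp2 the full split held on its probe set of higher signal and not on the other. Of all calls, 47.4% were higher at 1 month in KPAW and 48.3% in wild-type eyes, and with the values as deposited, without scaling, 65.0% and 90.8%. Gbp2 and Ifi35 had a mean at 5 days below the filter value and entered the test through their level at 1 month. Of the other 5 genes, 4 rose in KPAW and 4 in wild-type eyes, where 5.89% and 7.77% of the probe sets with a 5-day mean above the filter value rose. With no filter 5 of the 7 genes rose in KPAW eyes, without Irf7, and 6 in wild-type eyes, Gbp2 and Ifi35 among both. Over all 22626 probe sets of that fit, 4.34% rose in KPAW and 5.49% in wild-type eyes. The 2 age comparisons share no arrays, but they share the model's estimate of the spread.

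**Figure D1:**
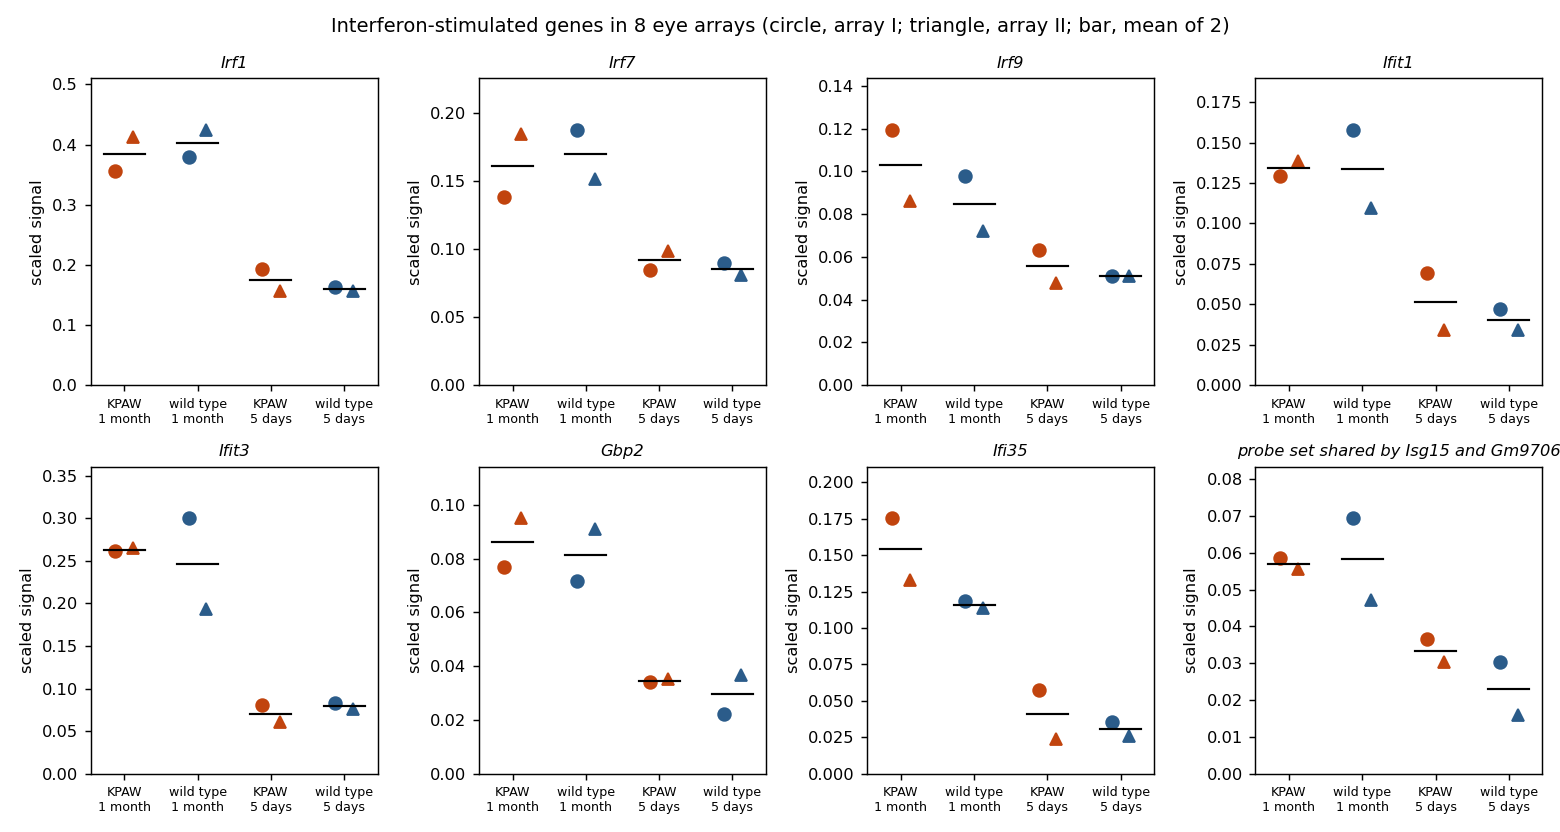
Scaled signal (linear scale, from 0) of each gene in the 8 arrays, with the 4 groups along the x axis, array I as circles, array II as triangles and the mean of 2 arrays as a bar. In the 7 panels of single genes the 4 points of 1 month lie above the 4 points of 5 days, for Irf1 between 0.357 and 0.425 at 1 month and between 0.156 and 0.193 at 5 days.

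Among the transcription factors, Irf1, which responds quickly to interferon-gamma and drives many of its targets, had scaled signals of 0.357 and 0.413 in KPAW eyes at 1 month, against 0.193 and 0.156 at 5 days. In wild-type eyes Irf1 had 0.379 and 0.425 at 1 month, against 0.164 and 0.156 at 5 days. The ages were far apart and the 2 kinds of eye overlapped at each age. Irf1 thereby rose by a log2 difference of 1.05 (SE 0.16, adjusted p = 0.00535) in KPAW eyes and 1.22 (SE 0.16, adjusted p = 0.00239) in wild-type eyes.

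Irf7, the factor that amplifies the type I interferon response, had 0.138 and 0.184 in KPAW eyes at 1 month, against 0.0848 and 0.0984 at 5 days. In wild-type eyes it had 0.188 and 0.152 at 1 month, against 0.0895 and 0.0811 at 5 days. Its spread between arrays at 1 month was wide beside its age difference. The log2 difference was 0.68 (SE 0.18, adjusted p = 0.0455) in KPAW eyes and 0.84 (SE 0.18, adjusted p = 0.0195) in wild-type eyes. In KPAW eyes this call was the least secure of the 6, since it was lost in 7 of the 8 fits that left out an array.

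Irf9, the DNA-binding subunit of the complex that recognises the ISRE, did not pass with the settings used here. It read 0.120 and 0.0861 in KPAW eyes at 1 month, against 0.0634 and 0.0478 at 5 days, and 0.0977 and 0.0722 in wild-type eyes at 1 month, against 0.0512 and 0.0510 at 5 days. The arrays of the ages did not overlap, but arrays I and II of 1 month were apart in both kinds of eye. Its log2 difference was 0.69 (SE 0.22, adjusted p = 0.0715) in KPAW eyes and 0.54 (SE 0.22, adjusted p = 0.119) in wild-type eyes, with 95% intervals of 0.19 to 1.18 and 0.05 to 1.04. It passed in KPAW eyes with a replicate block (adjusted p = 0.0455) and in wild-type eyes with the values as deposited (0.94, adjusted p = 0.0284), a setting in which the median of all probe sets in that comparison was 0.44.

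The effectors Ifit1 and Ifit3 belong to a family of tetratricopeptide-repeat proteins that bind foreign RNA and block its translation. Ifit3 had 0.262 and 0.265 in KPAW eyes at 1 month, against 0.0810 and 0.0603 at 5 days. Wild-type eyes had 0.300 and 0.194 at 1 month, against 0.0832 and 0.0757 at 5 days. Both KPAW arrays of 1 month thus lay between the 2 wild-type arrays of that age. The log2 difference of Ifit3 between the ages was 1.64 (SE 0.21, adjusted p = 0.00343) in KPAW eyes and 1.39 (SE 0.21, adjusted p = 0.00530) in wild-type eyes.

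Ifit1 followed the same order of arrays at 1 month. It had 0.130 and 0.139 in KPAW eyes at 1 month, against 0.0690 and 0.0340 at 5 days. Wild-type eyes had 0.158 and 0.109 at 1 month, against 0.0470 and 0.0339 at 5 days. KPAW I stood above the other 3 arrays at 5 days. Ifit1 rose by 1.14 (SE 0.27, adjusted p = 0.0299) in KPAW eyes and by 1.32 (SE 0.27, adjusted p = 0.0150) in wild-type eyes on the log2 scale.

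Gbp2, a large GTPase that is recruited to pathogen-containing vacuoles, had 0.0770 and 0.0950 in KPAW eyes at 1 month, against 0.0341 and 0.0350 at 5 days. In wild-type eyes the signals were 0.0716 and 0.0911 at 1 month and 0.0223 and 0.0367 at 5 days. Gbp2 rose by 0.94 (SE 0.22, adjusted p = 0.0272) in KPAW eyes and by 1.03 (SE 0.22, adjusted p = 0.0167) in wild-type eyes. Its second probe set, whose name marks probes that can also bind other transcripts, fell below the filter on low values. That probe set read 0.0496 and 0.0647 in KPAW eyes at 1 month, 0.0196 and 0.0327 in wild-type eyes at 1 month, 0.0174 and 0.0205 in KPAW eyes at 5 days, and 0.0147 and 0.0126 in wild-type eyes at 5 days, where array II was at the lowest listed value. The probe sets disagree at both ages, where the KPAW arrays lay above the wild-type arrays on the second and overlapped them on the first. With no filter the second probe set differed between KPAW and wild type at 1 month by 0.73 on the log2 scale, which did not pass (adjusted p = 0.436). In that fit it rose with age by 0.96 in KPAW eyes (adjusted p = 0.0189). In wild-type eyes it differed by 0.43, which did not pass (adjusted p = 0.177). Its KPAW arrays of 5 days overlapped the wild-type arrays of 1 month. The full split of the ages holds only on the first probe set.

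Ifi35, a leucine-zipper protein induced by interferons, had 0.175 and 0.133 in KPAW eyes at 1 month, against 0.0574 and 0.0240 at 5 days. In wild-type eyes it had 0.118 and 0.114 at 1 month, against 0.0356 and 0.0256 at 5 days. It rose by 1.55 (SE 0.28, adjusted p = 0.0110) in KPAW eyes and by 1.41 (SE 0.28, adjusted p = 0.0130) in wild-type eyes. The means over the 4 arrays of 5 days were 0.0356 for Ifi35 and 0.0320 for Gbp2. Log2 differences of such low signals understate the change, because the pseudocount is close to the 5-day signals.

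The probe set shared by Isg15, a ubiquitin-like protein that is attached to other proteins after interferon, and Gm9706 had 0.0585 and 0.0556 in KPAW eyes at 1 month, against 0.0365 and 0.0303 at 5 days. In wild-type eyes it had 0.0694 and 0.0471 at 1 month, against 0.0303 and 0.0160 at 5 days. It rose by 0.85 (SE 0.24, adjusted p = 0.0477) in wild-type eyes and differed by 0.52 (SE 0.24, adjusted p = 0.191) in KPAW eyes, where it did not pass. Which of the 2 sequences gave the signal cannot be told from this probe set.

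The age difference of the 7 genes kept its direction in every fit that was run, but the calls rest on few arrays. In wild-type eyes 2 of the 7 genes passed without wild type I at 1 month or without wild type I at 5 days, and 3 without wild type II of either age. In KPAW eyes 3 passed without KPAW II at 1 month or without KPAW II at 5 days, and 2 when only the KPAW arrays entered the fit. Irf1 and Ifit3 passed in both kinds of eye in each of the 8 fits that left out an array.

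Markers of other cells and of sex moved with age in some arrays. The wild-type arrays of 5 days carried female and those of 1 month male transcripts, so in wild type the ages and the sex markers cannot be told apart. KPAW I at 5 days carried male transcripts, as did the arrays of 1 month. Ifi202b, a p200-family gene inducible by interferon whose level is known to differ between inbred mouse strains, read 0.244 and 0.283 in KPAW eyes at 1 month, 0.181 and 0.184 in wild-type eyes at 1 month, 0.180 and 0.00901 in KPAW eyes at 5 days, and 0.0136 and 0.0181 in wild-type eyes at 5 days. The arrays thus fell into a high and a low set, with KPAW I alone high at 5 days, and the part of strain in the age differences was not tested.

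RNA of whole eyes cannot tell more cells of a type from more RNA per cell. Of 19 macrophage and microglia markers, 18 were on the array, and their summed scaled signal was 4.13 and 3.08 in KPAW eyes at 1 month, 2.48 and 2.21 in wild-type eyes at 1 month, 2.71 and 2.09 in KPAW eyes at 5 days, and 2.42 and 2.09 in wild-type eyes at 5 days. The sums of the 2 ages were separate in KPAW eyes, with 1 month higher, and overlapped in wild-type eyes. Of the 15 macrophage markers tested, 3 (Itgam, Lyz1 and Lyz2) rose with age in each kind of eye and 1, the Fc receptor gene Fcgr3, fell in wild-type eyes. Over all probe sets tested 6.76% rose in KPAW and 8.73% in wild-type eyes, where 9.33% fell. The median log2 age difference of the 15 markers was 0.38 in KPAW eyes and -0.003 in wild-type eyes, with 12 and 7 of them positive. Markers of T, NK and B cells were at background throughout: none of the 11 on the array passed the filter, and their sum was 0.196 to 0.221 in KPAW eyes and 0.190 to 0.216 in wild-type eyes at 1 month, beside 0.193 to 0.200 in KPAW eyes and 0.184 to 0.215 in wild-type eyes at 5 days. The T cell receptor chain gene Cd3d stood at the array's floor, the lowest listed value, in all 4 arrays of 5 days, and Cd2 did so in all 4 arrays of 1 month and in wild-type eyes at 5 days. Corneal epithelium markers (Krt12, Aldh3a1 and Slurp1) moved with age, with a summed signal of 2.27 and 9.17 in KPAW eyes at 1 month, 12.9 and 14.6 in wild-type eyes at 1 month, 0.796 and 0.922 in KPAW eyes at 5 days, and 0.749 and 0.668 in wild-type eyes at 5 days. The 9 keratinizing epithelium markers summed to 28.7 and 15.2 in KPAW eyes at 1 month, to 5.54 and 5.50 in wild-type eyes of that age, where Lor and Krtdap were at the floor, to 9.97 and 0.968 in KPAW eyes at 5 days, and to 5.92 and 1.45 in wild-type eyes at 5 days. Neutrophil markers (7 genes) summed to 2.30 and 0.667 in KPAW eyes at 1 month, 0.380 and 0.295 in wild-type eyes at 1 month, 1.45 and 0.240 in KPAW eyes at 5 days, and 0.261 and 0.225 in wild-type eyes at 5 days. KPAW I thus stood above KPAW II in both lists at both ages. The part of macrophages, neutrophils and surface epithelium in the results on the 7 genes was not tested.

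**Figure D2:**
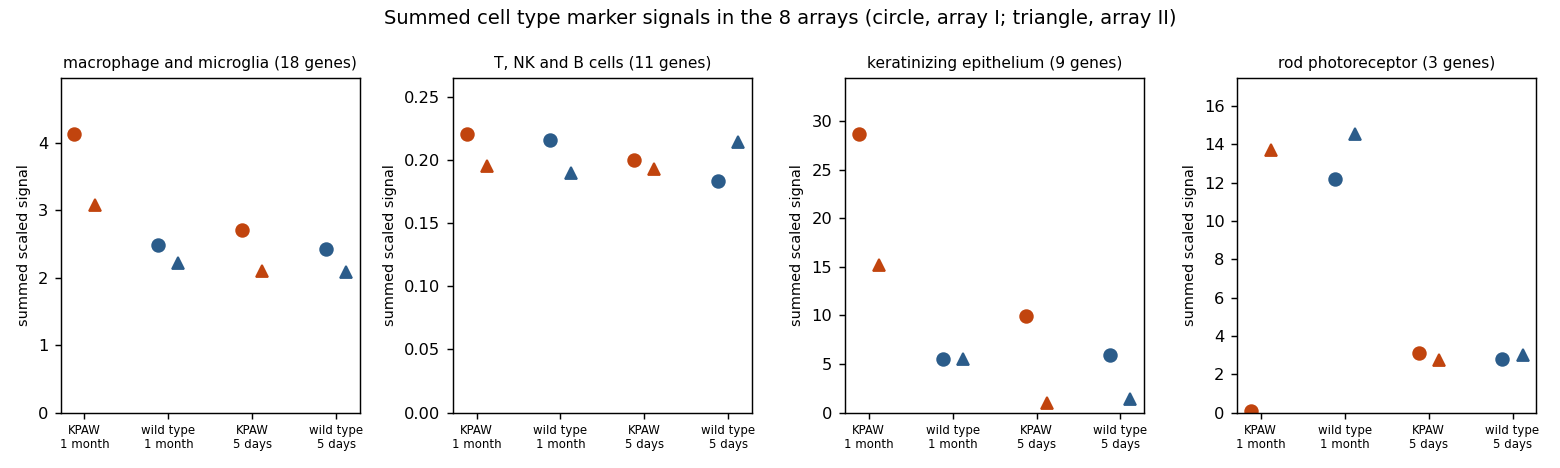
Summed scaled signal (linear scale, from 0) of 4 cell type marker lists in the 8 arrays, with the 4 groups along the x axis, array I as circles and array II as triangles. Macrophage sums were 3.08 and 4.13 in KPAW eyes at 1 month and between 2.09 and 2.71 in the other 3 groups, lymphocyte sums stayed between 0.184 and 0.221, and the rod sum was 0.0826 in KPAW I at 1 month.

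KPAW and wild-type eyes were then compared at each age. No gene of the 7 passed at 1 month in limma, where 0.0253% of all probe sets were called, and none had an unadjusted p under 0.05, while 1100 of all 15838 probe sets did. The log2 differences, KPAW minus wild type, were -0.06 for Irf1, -0.07 for Irf7, 0.22 for Irf9, 0.02 for Ifit1, 0.11 for Ifit3, 0.07 for Gbp2 and 0.34 for Ifi35, with adjusted p between 0.744 and 0.988. The 95% intervals measure the spread between these arrays, on the log2(signal + pseudocount) scale, and do not bound the difference between animals. They ran from -0.42 to 0.30 for Irf1 and from -0.30 to 0.98 for Ifi35, the narrowest and the widest of the 7, and at 1 month the 2 Ifi35 groups averaged 0.154 ± 0.0302 in KPAW eyes and 0.116 ± 0.00330 in wild-type eyes (SD, n = 2 arrays each). The arrays of the 2 kinds of eye were separate only for Ifi35, with both KPAW arrays higher, while 17.0% of all probe sets were separate in that direction and 19.6% in the other.

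At 5 days none of the 7 passed either, all with an adjusted p of 1.00, where 0.0% of all probe sets were called by limma and 378 had an unadjusted p under 0.05, none of them among the 7. The log2 differences were 0.11 for Irf1, 0.08 for Irf7 and for Irf9, 0.20 for Ifit1, -0.14 for Ifit3, 0.15 for Gbp2 and 0.21 for Ifi35. The arrays of the 2 kinds of eye overlapped in all 7, where 16.8% of all probe sets were separate with KPAW higher and 16.6% with KPAW lower. In KPAW eyes of 5 days, array I lay above array II for Irf1, Irf9, Ifit1, Ifit3 and Ifi35 and below it for Irf7 and Gbp2.

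The change of the KPAW difference between the ages was tested as an interaction. It ran from -0.18 for Ifit1 to 0.25 for Ifit3 on the log2 scale, and none of the 7 passed (adjusted p between 0.878 and 0.959), where 0.0% of all probe sets were called and 932 had an unadjusted p under 0.05, none of them among the 7. Its 95% interval was -0.68 to 0.34 for Irf1 and -0.44 to 0.95 for Ifit3.

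**Figure D3:**
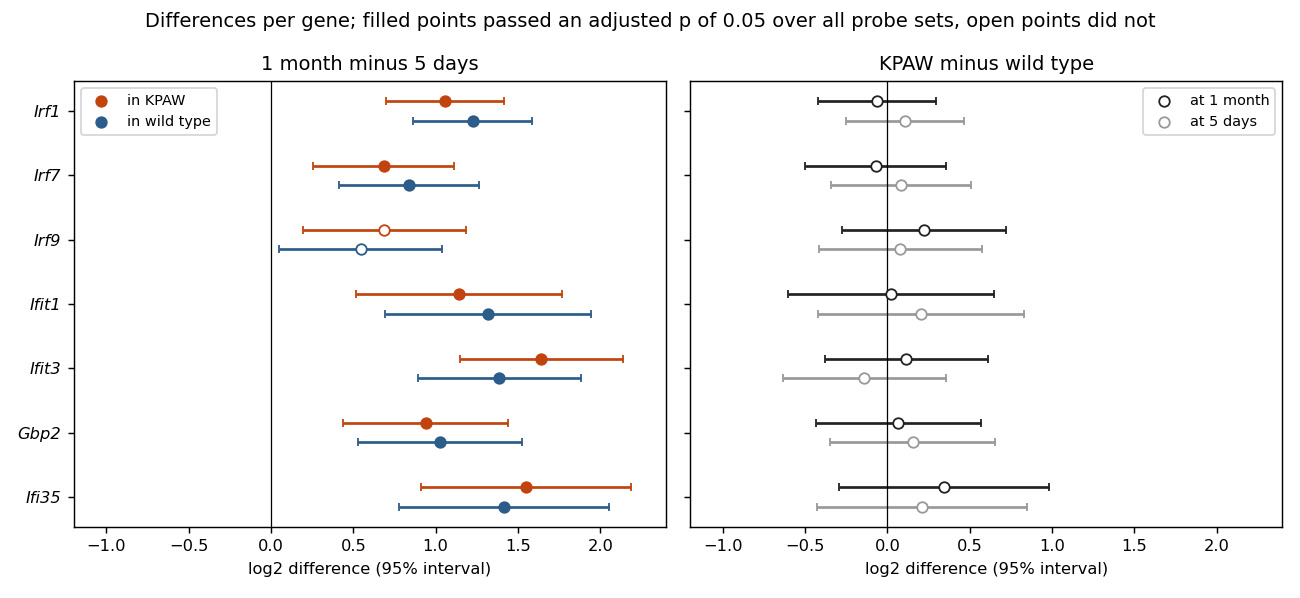
Log2 differences with 95% intervals for the 7 genes, on the left between the ages in KPAW (upper point of each pair) and wild-type eyes, and on the right between KPAW and wild type at 1 month (upper point) and 5 days. Filled points passed an adjusted p of 0.05 over all probe sets. On the left all points lie above 0, from 0.54 for Irf9 in wild type to 1.64 for Ifit3 in KPAW, and all are filled but those of Irf9. On the right all are open, between -0.14 and 0.34.

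The levels of the 4 groups were ordered in the same way for most genes. Wild type at 5 days was lowest and KPAW at 5 days next for all genes but Ifit3, for which these 2 were exchanged. At 1 month wild type stood below KPAW for Irf9, Ifit1, Ifit3, Gbp2 and Ifi35, and above it for Irf1 and Irf7. Neighbouring groups of the same age overlapped in every case but that of Ifi35 at 1 month.

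Other genes of the interferon pathway were read from lists by role, which held 114 genes. Of these, 93 had a probe set of their own on the array and 68 passed the filter on low values. With age, 19 of the 68 rose in KPAW eyes and 14 in wild-type eyes, where 6.76% and 8.73% of all probe sets rose, and none fell, where 7.51% and 9.33% did. The filter favoured risers, since 11 of the 68 had a 5-day mean below its value and were tested only through 1 month. Without those 11, 13 of 57 rose in KPAW and 9 of 57 in wild-type eyes. Of all probe sets with a 5-day mean above the filter value, 5.89% and 7.77% rose. With no filter, 14 of 93 rose in KPAW and 12 of 93 in wild-type eyes, where 4.34% and 5.49% of all probe sets rose. In that fit 1 of the 93 fell in wild-type eyes, beside 1354 of all 22626 probe sets. The median log2 age difference of the 68 was 0.53 in KPAW eyes and 0.43 in wild-type eyes. None passed between KPAW and wild type at 1 month (lowest adjusted p = 0.512) or 5 days (1.00). Of the 68, 46 were higher in KPAW eyes at 1 month, with a median log2 difference of 0.17, beside -0.01 over all probe sets. At 5 days 39 were higher, with a median of 0.03 beside 0.01.

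Interferon genes themselves gave no usable signal. Of 8 on the array, among them Ifnb1, Ifng and 6 interferon-alpha genes, none passed the filter, 24 of their 64 values were at the lowest listed value, and their mean scaled signals ran from 0.0101 to 0.0318. Receptors were measured throughout, and 1 of 5, Il10rb, the shared chain of the interferon-lambda and interleukin-10 receptors, rose in both KPAW (0.83, adjusted p = 0.0348) and wild-type eyes (0.88, adjusted p = 0.0240). Over all probe sets tested 6.76% rose in KPAW and 8.73% in wild-type eyes. With no filter none of the 5 receptors rose in KPAW eyes and 1 in wild-type eyes, beside 4.34% and 5.49% of all probe sets. Ifnar2 differed with age by 0.54 in KPAW eyes and -0.13 in wild-type eyes, and Ifngr2 by 0.55 and 0.23 in the same order, without passing. None of 5 JAK and STAT genes passed, with Jak1 at 0.15 in KPAW and 0.49 in wild-type eyes, Jak2 at -0.25 and -0.12, and Stat3 at 0.24 and 0.11. The other IRF genes had a median age difference of 0.03 in KPAW and 0.06 in wild-type eyes. Irf3, the constitutive factor downstream of RNA sensors, differed by 0.18 in KPAW and 0.04 in wild-type eyes, Irf5 by -0.03 and 0.07, and Irf8 by 0.02 and 0.09, with none of 4 passing.

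Among 7 negative regulators Usp18, the protease that removes Isg15 from proteins, rose in KPAW eyes (0.79, adjusted p = 0.0489), with a value of 0.46 in wild-type eyes that did not pass. The 5-day mean of Usp18 lay below the filter value, so it was tested only through 1 month. With no filter none of the 7 was called with age in either kind of eye. Socs3 (-0.16 in KPAW and -0.88 in wild-type eyes) and Pias1 (-0.17 and 0.34) did not pass. Of 6 sensors and adaptors, the cytoplasmic RNA sensor Ifih1 (1.15, adjusted p = 0.0288) and its mitochondrial adaptor Mavs (0.82, adjusted p = 0.0359) rose in KPAW eyes. In wild-type eyes Ifih1 (0.90), Mavs (0.60) and the Toll-like receptor adaptor Myd88 (0.68, and 0.77 in KPAW) did not pass. Over all probe sets tested 6.76% rose in KPAW and 8.73% in wild-type eyes. With no filter 1 of 10 sensors and adaptors rose in KPAW eyes and none in wild-type eyes, beside 4.34% and 5.49% of all probe sets. Whether these genes change by different amounts in the 2 kinds of eye was tested by the interaction, in which none of the 68 passed.

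The type I target list had 25 genes tested, of which 10 rose in KPAW eyes and 8 in wild-type eyes, beside 6.76% and 8.73% of all probe sets. Of the 20 with a 5-day mean above the filter value, 8 and 6 rose, beside 5.89% and 7.77% of all probe sets with such a mean. With no filter 8 of 32 rose in KPAW and 6 of 32 in wild-type eyes, where 4.34% and 5.49% of all probe sets rose. In that fit 1 of the 32 fell in wild-type eyes, beside 1354 of all 22626 probe sets. Risers in both kinds of eye were the oligoadenylate synthetase-like genes Oasl1 (0.97 in KPAW and 1.03 in wild-type eyes) and Oasl2 (1.56 and 1.60), the membrane protein gene Ifitm1 (2.65 and 1.87), the ubiquitin ligase Trim25 (0.86 and 0.83), Parp9 (0.99 and 0.85) and the secreted glycoprotein gene Lgals3bp (1.09 and 0.54). Past the threshold in KPAW and not in wild-type eyes were Ifi27l2a (1.90 in KPAW and 0.85 in wild-type eyes) and Parp14 (1.00 and 0.75). So were the RNA-editing enzyme Adar (0.84 and 0.45) and the nucleotide phosphohydrolase Samhd1 (0.67 and 0.15). Past it in wild-type and not in KPAW eyes were Cmpk2 (0.41 in KPAW and 0.81 in wild-type eyes) and Ifi202b (1.87 and 2.46). Oasl2, Parp14 and Cmpk2 had a 5-day mean below the filter value and were tested only through 1 month. Ifitm1 read 5.11 and 3.79 in KPAW eyes at 1 month, 3.03 and 2.43 in wild-type eyes at 1 month, 1.19 and 0.386 in KPAW eyes at 5 days, and 0.675 and 0.778 in wild-type eyes at 5 days, so the ages were separate in all 8 arrays. Rsad2 was lower at 1 month, by -0.57 in KPAW and -0.49 in wild-type eyes, and did not pass. Ifit2, Mx1, Mx2 and Bst2 fell below the filter. Rsad2 and these untested genes were chosen for mention after their values were seen.

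Of 8 interferon-gamma targets tested, the immunity-related GTPase gene Ifi47 rose in KPAW (1.53, adjusted p = 0.00488) and wild-type eyes (1.28, adjusted p = 0.00802). Over all probe sets tested 6.76% rose in KPAW and 8.73% in wild-type eyes. The other 7 targets did not pass. Iigp1 (0.20 in KPAW and -0.37 in wild-type eyes) and Ifi30 (0.53 and -0.10) were among them. Another 5 of the 13 on the array fell below the filter, among them the chemokine genes Cxcl9, Cxcl10 and Cxcl11, which were chosen for mention after their values were seen. Antigen presentation genes gave 4 risers of 8 in each kind of eye, but 3 of the 4 (Psmb8, Psmb9 and Tap2) had a 5-day mean below the filter value and were tested only through 1 month. The same count, 4 of 8, passed in each kind of eye with no filter, where 4.34% of all probe sets rose in KPAW and 5.49% in wild-type eyes. The risers were the immunoproteasome subunits Psmb8 (2.69 in KPAW and 2.41 in wild-type eyes) and Psmb9 (1.80 and 1.12), the peptide transporter subunit Tap2 (0.96 and 1.37) and its partner tapasin, Tapbp (0.97 and 0.86). Psmb8 read 0.199 and 0.185 in KPAW eyes at 1 month, against 0.0153 and 0.00901 at 5 days, and 0.169 and 0.155 in wild-type eyes at 1 month, against 0.0143 and 0.0126 at 5 days, so its 5-day signals lay below the pseudocount and the size of its difference depends on it.

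**Figure D4:**
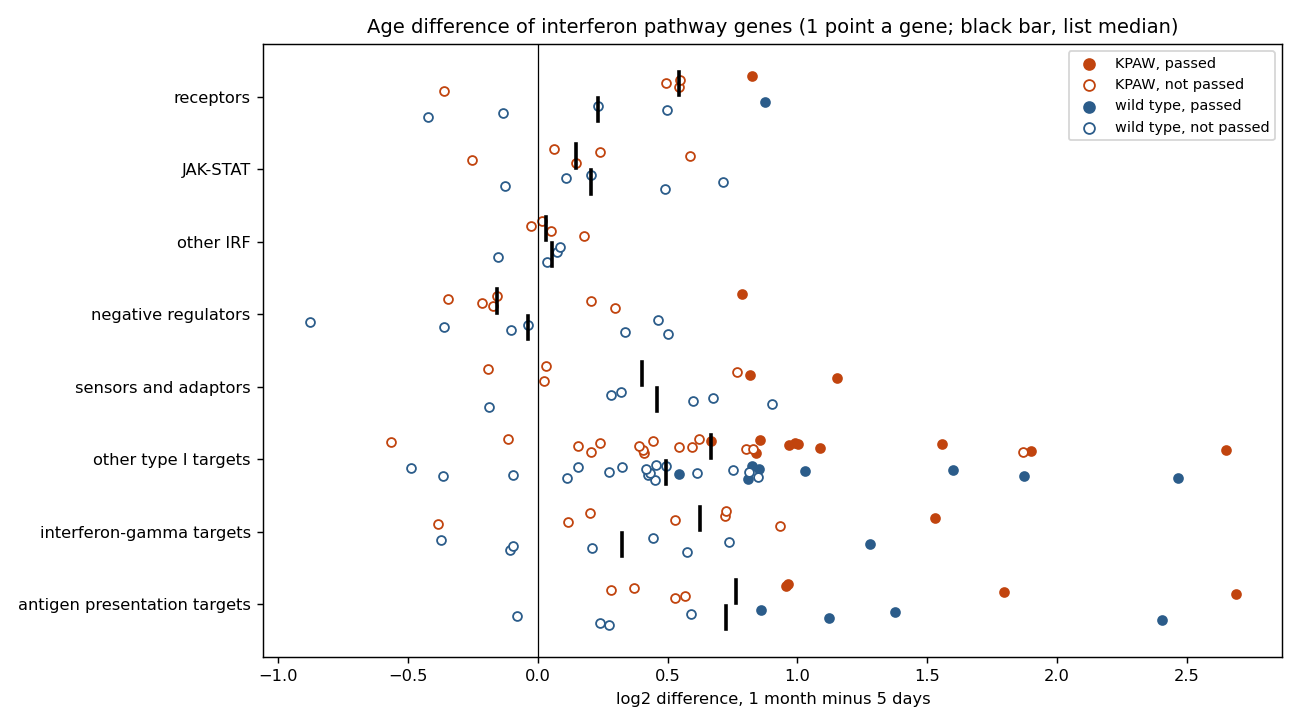
Log2 difference between 1 month and 5 days for each tested pathway gene (1 point a gene), by list down the page, KPAW above wild type within each list, with the list's median as a black bar. Filled points passed an adjusted p of 0.05. Every filled point lies above 0, and the largest is Psmb8 in KPAW eyes at 2.69, among the antigen presentation targets.

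The genes most like the mean standardized profile of the 7 over all 8 arrays were Rassf7 (Pearson r = 0.994), the integrin gene Itgam (0.992), Pcolce2 (0.992), Psmb8 (0.991) and the clock-related factor Tef (0.990). All 5 rose with age in both kinds of eye, and the 8 arrays share their split by age. The 7 genes correlated with each other over the 8 arrays at 0.77 to 0.97 (21 pairs, median 0.92). After each group's mean was taken off, the same pairs ran from -0.60 to 0.87 with a median of 0.15, and 9 of 21 were below 0. The closest genes were then Col17a1 (0.994), Kin (0.992), Mpdu1 (0.991), Rab7b (0.989) and Polrmt (0.984), which rest on 4 differences between arrays I and II. These correlations are descriptions of 8 arrays and carry no test.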

How the data were processed

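RNA of KPAW and wild-type eyes was hybridized to 8 arrays in 4 groups of 2, assigned by the sample titles. The deposited file holds a linear signal for each probe set on each array. The sources used here do not name the software that made it. Signals ran from 0.01, the lowest listed value, to 11.1, and 10.0% to 14.9% of an array's probe sets were at that value. The number of arrays, not depth, limits the precision. From the deposited signals, 64 controls were left out, arrays were scaled to a common trimmed mean (2% off each end), and a pseudocount at the 20th percentile (0.0211) was added before log2. Probe sets with a mean above the 30th percentile were tested. A gene was represented by its probe set with the highest mean signal. Symbols came from GEO's platform annotation.

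One limma 3.58.1 model (R 4.3.3) with a mean per group, a variance trend and 4 residual degrees of freedom was fitted to all 8 arrays, with Benjamini-Hochberg adjustment over 15838 probe sets and a threshold of 0.05. Fold changes are on the log2(signal + pseudocount) scale. On data simulated for KPAW against wild type at 1 month with 15838 probe sets, 54% of 50 probe sets changed 2-fold and 96% of 50 changed 4-fold were recovered. The same run held 50 probe sets changed 8-fold and 50 changed 16-fold, of which 100% were recovered, and gave 17 false calls in all. The simulated noise was independent between arrays, and more changes were planted than the 4 probe sets called in the real comparison. The recovered shares are therefore not the power of the real comparison. There the 9 keratinizing epithelium markers had a median log2 difference of 4.41, and limma called none (lowest adjusted p = 0.0794). The members, the gene lists and the rule for named genes (all members; of each list the genes past the threshold, filled up to 3 by the moderated statistic of the 1-month KPAW comparison) were chosen with earlier results of these data known. Figures were drawn with matplotlib 3.10.9 in Python 3.11.15. Alternatives were other scalings, pseudocounts and filters, no trend, a fit of only the groups compared, a replicate block and each array left out. Counts among probe sets with a 5-day mean above the filter value were added after seeing the data.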

Additional observations from a re-analysis of the deposited data

How the results depend on the processing

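With age, 6 of 7 genes rose in each kind of eye, and all kept their direction in every alternative. Among the 7, 3 passed in KPAW and 3 in wild-type eyes with a filter above the 50th percentile, where only 3 of the genes were tested, and 2 passed in KPAW eyes with the groups of the contrast alone. Leaving out an array gave 3 to 5 in KPAW and 2 to 6 in wild-type eyes. A replicate block left the count at 6 in each, with Irf7 lost in KPAW eyes (adjusted p = 0.0562) and Irf9 gained there (adjusted p = 0.0455). The labels tie arrays of 1 number to nothing shared, and the differences between arrays I and II correlated at 0.20 between the ages in KPAW eyes and at -0.01 in wild-type eyes, with -0.02 to 0.31 over all pairs of groups, so the numbers were not taken to pair the arrays. No gene passed between KPAW and wild type or in the interaction under any alternative. Without scaling, the median of all probe sets tested moved to -0.26 between KPAW and wild type at 1 month, 0.18 at 5 days, -0.01 with age in KPAW eyes, 0.44 with age in wild-type eyes and -0.45 in the interaction. All 7 genes stayed above the median for age in both kinds of eye, 5 at 1 month and 6 at 5 days, the same counts as with scaling. Some small differences changed sign against 0 under these values. At 1 month Gbp2 was then -0.16, Irf9 -0.014, Ifit3 -0.15 and Ifit1 -0.23, at 5 days Ifit3 was 0.010, and in the interaction Irf9 was -0.23, Ifi35 -0.20 and Ifit3 -0.16. With an array left out, the values that changed sign had these ranges. At 1 month Irf7 ran from -0.26 to 0.11, Gbp2 from -0.071 to 0.20, Irf1 from -0.16 to 0.040, Ifit3 from -0.18 to 0.40 and Ifit1 from -0.21 to 0.25. At 5 days Gbp2 ran from -0.053 to 0.36, Irf9 from -0.069 to 0.23, Ifi35 from -0.19 to 0.61, Irf1 from -0.029 to 0.25, Ifit1 from -0.15 to 0.56, Irf7 from -0.0061 to 0.17 and Ifit3 from -0.30 to 0.023. In the interaction Gbp2 ran from -0.29 to 0.12, Ifi35 from -0.27 to 0.53, Ifit1 from -0.54 to 0.18, Irf9 from -0.052 to 0.34, Ifit3 from -0.035 to 0.54 and Irf7 from -0.34 to 0.031. A group left with 1 array is assumed to vary like the other groups.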
